A study of Homo sapiens with 8 samples.

Results

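Diclofenac (DCF) is a non-steroidal anti-inflammatory drug, used in eye drops among other forms, and its effect on gene expression was measured here in a human corneal epithelium that was kept in static culture. The comparison is that of static culture with 50 µM DCF (ST_DCF) against static culture without it (ST), and it holds 4 of the 8 libraries of the series, 2 in each condition (n = 2). They were chosen by the sample titles, and each ST_DCF library is shown on its own below, since replicate 1 lay apart. The cells of all groups were HCE-T, an immortalised human corneal epithelial cell line, grown for 7 days in the upper channel of a microfluidic device, in a medium with serum, insulin, epidermal growth factor and dimethyl sulfoxide. DCF was added to the upper channel, and the cells were collected 24 h later. The 4 other libraries came from the same device under an air-liquid stimulus, with 50 µM DCF (AL_DCF) or without drug (AL). They entered the model as a source of information on the spread and are otherwise used only beside the static values. The line is a single one, so the replicates are cultures and not donors. The study describes them as independent biological samples. An exact permutation test of 2 against 2 libraries is limited to a smallest two-sided p of 0.333, so single genes were tested only with a model over all genes.

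DCF blocks the cyclooxygenases, the enzymes that turn arachidonic acid into prostaglandin H. Terminal synthases then make prostaglandin E, F, D, prostacyclin or thromboxane from it, and these act on their own receptors on the same and on neighbouring cells. In the cornea, prostaglandins take part in inflammation, pain and wound healing. Since DCF acts on enzyme activity, its effect on transcripts can lie anywhere in the pathway or outside it, and the genes are therefore given by their role, the drug target pathway first.

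The deposited table held read counts for 18430 genes, of which 17445 passed an expression filter and were tested. Levels are given in CPM, which are counts scaled to the depth of the library, and differences as log2 fold changes of ST_DCF over ST with their standard errors. Each adjusted p comes from the quasi-likelihood test of edgeR, with the Benjamini-Hochberg method over all 17445 genes, except where DESeq2 or limma-voom is named, and a gene is said to have risen or fallen only where it is under 0.05. Totals were 37954695 and 34042094 counts in ST_DCF, against 34917967 and 32880479 counts in ST, so that a gene at 1 CPM had about 32.9 counts in the smallest library and a counting error of 17.4%. In the cells, epithelial markers were abundant, with a sum over 14 genes of 8040 and 7240 TPM in ST_DCF, against 7290 and 7140 TPM in ST. KRT8, KRT18 and KRT19 made up most of this sum, with 2750, 2480 and 1090 TPM in ST_DCF replicate 1. KRT14, KRT6A and TP63 of the same list were low, with 1.85, 1.18 and 0.273 TPM in that library. The corneal keratin genes KRT3 and KRT12 were not analysed here, while PAX6, the master regulator of eye development, had 10.0 and 9.38 CPM in ST_DCF, against 10.1 and 9.02 CPM in ST. The corneal markers CLU, WNT7A and ALDH3A1 had 59.6, 5.67 and 0.887 TPM in ST_DCF replicate 1, so ALDH3A1 was low. Myoblasts are named in the extraction text of the labels. Of 16 skeletal muscle markers, 12 were not analysed here, MYOD1 and MYOG among them, and the other 4 summed to 2.64 and 2.90 TPM in ST_DCF, against 2.62 and 4.07 TPM in ST.

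The ST_DCF libraries differed from each other more than the ST libraries did. Over the log2 CPM of all genes tested, the distance between them was 54.0, against 45.7 between the ST libraries. Replicate 1 of ST_DCF was 59.3 and 58.0 from the ST libraries, and replicate 2 was 49.6 and 46.8 from them, so replicate 2 lay nearer to ST than to its own replicate. Among 11046 genes with a mean log2 CPM above 3, 36 differed by a factor of 2 or more between the ST_DCF libraries, against 9 between the ST libraries. Between the AL_DCF libraries 24 did, against 9 between the AL libraries, at distances of 50.2 and 44.8. The difference between the ST_DCF libraries also changed with transcript length. Among 15562 genes with a known length, which were split into 5 classes of equal size, the median of replicate 1 minus replicate 2 was −0.099 on the log2 scale in the class of the shortest transcripts, with a median length of 1308 bases, and 0.102 in that of the longest, with a median length of 7405 bases. In ST the same medians were −0.009 and 0.017. In AL_DCF they were 0.015 and −0.062, and in AL −0.023 and 0.021. The ST_DCF over ST difference, which averages both replicates, had medians of −0.009 and −0.011 in these classes. Length was that of the longest annotated transcript of each gene. The part of length in the results below was not tested.

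**Figure D1:**
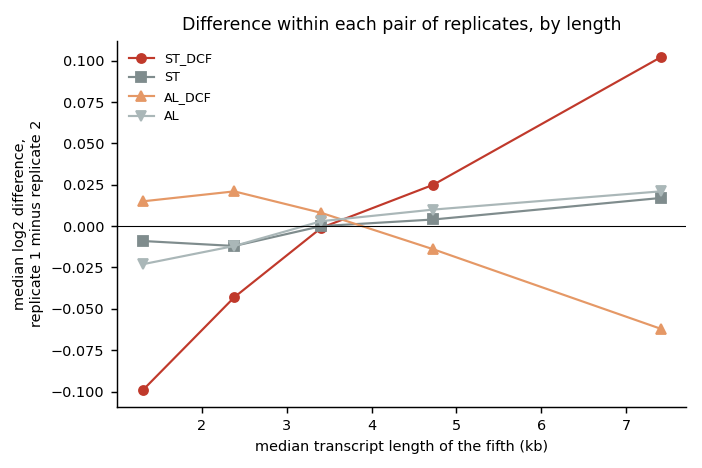
Median log2 difference between replicate 1 and replicate 2 of each condition (vertical axis), for 5 classes of genes by transcript length (horizontal axis, median length of each class in kb). The ST_DCF line runs from −0.099 in the shortest to 0.102 in the longest class, while the ST line stays between −0.012 and 0.017. The AL_DCF line runs the other way, from 0.015 in the shortest to −0.062 in the longest class.

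Of the 17445 genes tested, 1 passed the test, which is 0.00573% of them. That gene was PTGES, and it rose. Without the correction for many tests, 1750 genes (10%) differed at an unadjusted p under 0.05. Of these, 964 genes (5.53%) were higher and 786 genes (4.51%) lower in ST_DCF. These 2 shares are the background against which each count of list members at that threshold below should be read, together with 21.3% of genes with both ST_DCF libraries above both ST libraries and 21.6% with both below. DESeq2 called 73 genes (0.418%), 50 higher and 23 lower (0.287% and 0.132%). The exact test of edgeR, at the thresholds of the study, which were an unadjusted p under 0.05 and a fold of 2, picked 153 higher and 113 lower (0.83% and 0.613% of 18430). The counts depended on single libraries, among them ST_DCF replicate 1. With that library left out 0 genes passed the test, and 521 genes were higher and 577 lower at an unadjusted p under 0.05 (2.95% and 3.26%). The shares at that threshold were 2.52% and 1.74% without ST replicate 1, and 3.67% and 2.61% without ST replicate 2. With ST_DCF replicate 2 left out, 236 genes were called higher and 72 lower (1.33% and 0.407%). In that fit ST_DCF was 1 library and was assumed to vary like the other conditions, which also holds for each single gene said below to have passed without replicate 2. The 236 genes had a median difference from the mean of ST of 0.80 in replicate 1, on which they were chosen, and of 0.13 in replicate 2, on the log2 scale and against the same ST libraries. For the 72 lower genes these medians were −0.66 and −0.13. Counts of list members at the unadjusted threshold also depended on single libraries, as the shares over all genes did. Many of these counts are small, and a move between 0 and 1 is included below. The moves therefore say little of any list by itself. With 1 static library left out, a count moved by more than 1.5 times in 27 of the 39 gene lists described below for ST_DCF replicate 1, in 29 for ST_DCF replicate 2, in 32 for ST replicate 1 and in 29 for ST replicate 2, and each of the 39 lists was affected by at least 1 library. Fewer cells of a kind and less RNA per cell cannot be told apart in these bulk libraries.

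**Figure D2:**
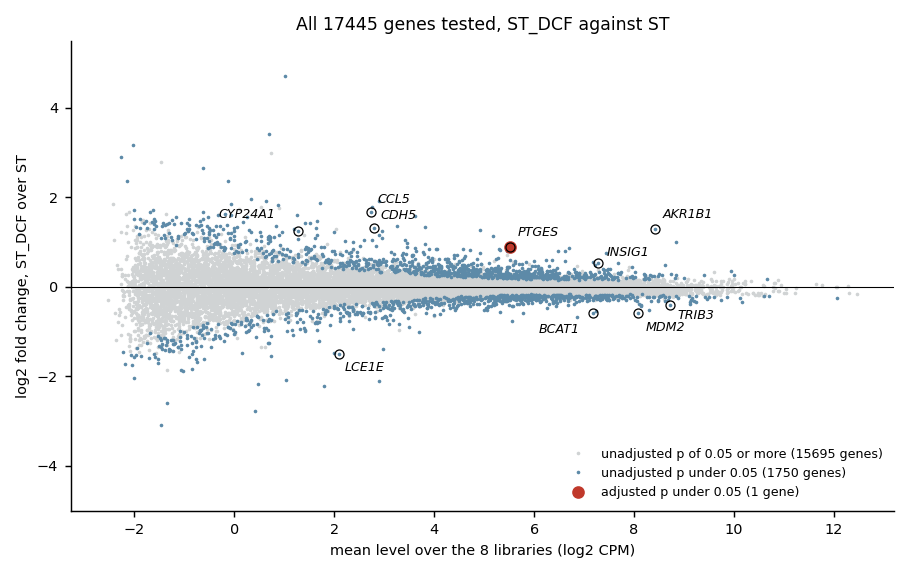
Log2 fold change of ST_DCF over ST (vertical axis) against the mean level over the 8 libraries (horizontal axis, log2 CPM) for the 17445 genes tested, coloured by the unadjusted and the adjusted p of edgeR's quasi-likelihood test. PTGES, at a log2 fold change of 0.89, is the 1 gene with an adjusted p under 0.05, among 1750 genes with an unadjusted p under 0.05.

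PTGES encodes the inducible, membrane-bound prostaglandin E synthase, which acts just after the cyclooxygenases. It had 90.5 and 87.4 CPM in ST_DCF, against 46.1 and 49.8 CPM in ST. The libraries of each condition lay close together and the conditions did not overlap. PTGES rose by 0.89 on the log2 scale, at a standard error of 0.105 and an adjusted p of 0.0482, with 0.92 in replicate 1 and 0.87 in replicate 2 relative to the mean of ST. The call was at the edge of the threshold. It was lost without ST_DCF replicate 1 (adjusted p = 0.563), without ST replicate 1 (0.328), ST replicate 2 (0.366), AL replicate 1 (0.0665) or AL replicate 2 (0.07), without the expression filter (0.158) and on log2(FPKM + 1) (0.149) and log2(FPKM + 0.1) (0.21), while the log2 fold change stayed between 0.84 and 0.95. Under the air-liquid stimulus PTGES had 27.7 and 22.8 CPM in AL_DCF, against 20.1 and 22.8 CPM in AL, a log2 fold change of 0.23. The difference between both responses did not pass the test (adjusted p = 0.189).

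The PTGES gene lies at chr9:129738349-129753042 of GRCh38 on the minus strand. Its promoter is shown because it belongs to the gene that rose; RefSeq (GRCh38.p14) gives the 250 bases before and 50 bases after the start as chr9:129752993-129753292, minus strand. Capitals mark 2 copies of the GC box GGGCGG, to which zinc-finger factors such as SP1 can bind, 89 and 78 bases before the start.
PTGES: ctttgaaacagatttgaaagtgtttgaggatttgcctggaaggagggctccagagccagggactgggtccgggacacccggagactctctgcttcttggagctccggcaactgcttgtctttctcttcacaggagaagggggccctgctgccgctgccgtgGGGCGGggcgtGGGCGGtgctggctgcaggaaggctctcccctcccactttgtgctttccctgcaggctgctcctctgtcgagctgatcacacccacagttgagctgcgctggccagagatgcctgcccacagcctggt
The letters GGGCGG were searched on both strands and occur in 45% of the 35116 RefSeq promoters of this length, so the match only describes the sequence. EGR1, the gene of a zinc-finger factor known to act on the PTGES promoter, had 209 and 239 CPM in ST_DCF, against 268 and 232 CPM in ST, and did not pass the test (adjusted p = 0.585). The part of EGR1 in the rise of PTGES was not tested.

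The other synthases and the cyclooxygenases did not pass the test. PTGS1, the constitutive cyclooxygenase, had 13.7 and 12 CPM in ST_DCF, against 10.7 and 11.2 CPM in ST (log2 fold change 0.23, standard error 0.131, adjusted p = 0.578). PTGS2, the inducible cyclooxygenase, had 11.8 and 6.59 CPM in ST_DCF, against 7.55 and 7.59 CPM in ST. Here replicate 1 stood above the other 3 static libraries and replicate 2 below them, so the log2 fold change of 0.28 (adjusted p = 0.741) had no common direction, and it was −0.20 without replicate 1. AKR1B1, an aldo-keto reductase that can act as a prostaglandin F synthase, had 682 and 259 CPM in ST_DCF, against 172 and 212 CPM in ST. Both ST_DCF libraries were above both ST libraries, but replicate 1 held most of the difference, with 1.83 over the mean of ST against 0.44 in replicate 2 (log2 fold change 1.29, standard error 0.326, adjusted p = 0.337). PTGIS, the prostacyclin synthase, showed the same form, with 11.1 and 4.59 CPM in ST_DCF, against 4.05 and 4.45 CPM in ST (adjusted p = 0.426). PTGES3, a cochaperone of HSP90 that also has prostaglandin E synthase activity, had 301 and 332 CPM in ST_DCF, against 375 and 359.5 CPM in ST (log2 fold change −0.22, adjusted p = 0.426). PTGES2, a further membrane-associated prostaglandin E synthase, had 59.4 and 58.6 CPM in ST_DCF, against 61.5 and 56.1 CPM in ST, with overlapping groups. TBXAS1, the thromboxane synthase, had 0.469 and 0.412 CPM in ST_DCF, against 0.23 and 0.671 CPM in ST, and AKR1C3, a reductase that makes prostaglandin F among other products, had 2.21 and 1.21 CPM in ST_DCF, against 0.804 and 1.49 CPM in ST. Of the 10 tested members of this list, 3 were higher and 1 lower at an unadjusted p under 0.05, and the median log2 fold change was 0.26, against −0.001 over all genes. The median was 0.48 in replicate 1 and 0.075 in replicate 2.

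Upstream of the cyclooxygenases, 3 of 9 genes of arachidonic acid release were higher at an unadjusted p under 0.05 and 0 were lower. The count was 1 without ST_DCF replicate 1, 1 without ST replicate 1 and 0 without ST replicate 2. MGLL, the lipase that frees arachidonic acid from the endocannabinoid 2-arachidonoylglycerol, had 85.2 and 65.3 CPM in ST_DCF, against 63.8 and 59 CPM in ST (log2 fold change 0.29, adjusted p = 0.483). PLA2G4A, the classical cytosolic phospholipase A2, had 3.44 and 1.21 CPM in ST_DCF, against 1.41 and 1.07 CPM in ST, so that replicate 1 alone was high. PLA2G4F, a related phospholipase, had 0.625 and 1.56 CPM in ST_DCF, against 0.603 and 0.274 CPM in ST (adjusted p = 0.45). PLA2G4B had 7.50 and 0.382 CPM in ST_DCF, against 0.172 and 0.122 CPM in ST, but it overlaps a readthrough transcript with the neighbouring JMJD7, so reads may be split differently between libraries. In AL, without drug, it had 5.30 and 0.0476 CPM. PLA2G4B is therefore uncertain.

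Of 9 prostanoid receptor genes, 5 were tested and 0 passed at either threshold. PTGER4 and PTGER2, the receptors of prostaglandin E that raise cyclic AMP, had 5.60 and 3.97 CPM in ST_DCF, against 3.45 and 3.63 CPM in ST for PTGER4, and 10.9 and 8.03 CPM in ST_DCF, against 8.04 and 6.83 CPM in ST for PTGER2. PTGFR, the receptor of prostaglandin F, had 4.04 and 5.15 CPM in ST_DCF, against 6.35 and 5.37 CPM in ST (log2 fold change −0.35, adjusted p = 0.572). PTGIR, the prostacyclin receptor, had 0.104 and 0.647 CPM in ST_DCF, against 0.316 and 0.213 CPM in ST, and TBXA2R, the thromboxane receptor, had 2.58 and 2.18 CPM in ST_DCF, against 2.61 and 2.1 CPM in ST. Among 8 genes of prostaglandin breakdown and transport, 2 were higher at an unadjusted p under 0.05. CBR1, a carbonyl reductase that can convert prostaglandin E to prostaglandin F, had 94.6 and 97 CPM in ST_DCF, against 84.4 and 83.9 CPM in ST, with both ST_DCF libraries above both ST libraries (log2 fold change 0.19, adjusted p = 0.45). ABCC4, an exporter of prostaglandins, had 23.6 and 22.7 CPM in ST_DCF, against 20.2 and 18.9 CPM in ST (log2 fold change 0.25, adjusted p = 0.48). The lipoxygenase list, a parallel branch of arachidonic acid use, had 1 of 9 members higher at that threshold, EPHX2, a soluble epoxide hydrolase, with 2.87 and 3.12 CPM in ST_DCF, against 1.98 and 2.04 CPM in ST. ALOX12B, a lipoxygenase of the epidermal barrier, had 2.89 and 2.97 CPM in ST_DCF, against 3.76 and 4.33 CPM in ST (log2 fold change −0.47, adjusted p = 0.497).

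**Figure D3:**
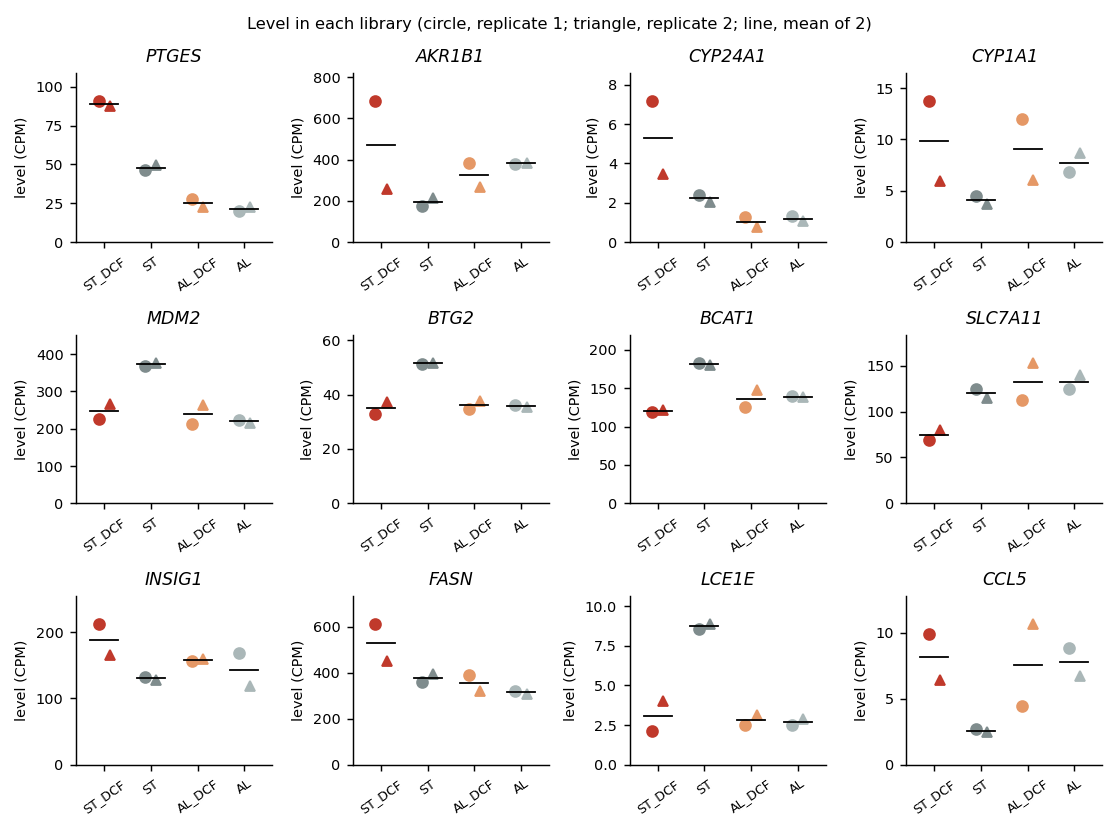
Level of 12 genes in each library (vertical axes in CPM, starting at 0), with ST_DCF left of ST and AL_DCF left of AL; circles are replicate 1, triangles replicate 2 and lines the mean of 2. The PTGES libraries lie at 90.5 and 87.4 CPM in ST_DCF, against 46.1 and 49.8 CPM in ST, whereas AKR1B1, CYP24A1 and CYP1A1 are high mostly in replicate 1 of ST_DCF.

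CYP24A1 encodes the 24-hydroxylase that degrades active vitamin D and is the classical target of the vitamin D receptor. It had 7.16 and 3.47 CPM in ST_DCF, against 2.41 and 2.04 CPM in ST, and both ST_DCF libraries were above both ST libraries. CYP24A1 did not pass the test (adjusted p = 0.361). Its log2 fold change of 1.26 had a standard error of 0.348, and it was 1.67 in replicate 1 and 0.63 in replicate 2. Without replicate 2 it passed (adjusted p = 0.0238). The rest of the list did not share this size. VDR, the receptor, had 92.7 and 92.1 CPM in ST_DCF, against 96.8 and 94.9 CPM in ST, and CYP27B1, which makes active vitamin D, had 28.2 and 17.4 CPM in ST_DCF, against 19.5 and 18.5 CPM in ST, higher in replicate 1 and lower in replicate 2 than in ST, so that its log2 fold change of 0.27 was −0.12 without replicate 1. Over 11 tested vitamin D target genes, 2 were higher at an unadjusted p under 0.05 and the median was 0.10. The other one was CD14, the coreceptor for bacterial lipopolysaccharide, with 4.27 and 4.00 CPM in ST_DCF, against 2.76 and 2.56 CPM in ST (log2 fold change 0.64, adjusted p = 0.385). CD14 is also a monocyte marker, and 6 analysed markers of immune and endothelial cells summed to 116 and 99.5 TPM in ST_DCF, against 81.5 and 83.2 TPM in ST, while the pan-leukocyte gene PTPRC was not analysed here. CD68 made up most of this sum, with 96.6 and 86 TPM in ST_DCF, against 72.8 and 74.9 TPM in ST. The part of these markers in the result was not tested.

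CYP1A1, the cytochrome P450 that is the standard readout of the aryl hydrocarbon receptor, had 13.7 and 5.94 CPM in ST_DCF, against 4.51 and 3.72 CPM in ST (log2 fold change 1.26, standard error 0.379, adjusted p = 0.382), and its relative CYP1B1 had 68.4 and 30.1 CPM in ST_DCF, against 26.8 and 29.3 CPM in ST (log2 fold change 0.82, adjusted p = 0.406). For both genes replicate 1 was far above ST and replicate 2 was nearer to it. TIPARP, a target that restrains the receptor in turn, had 38.7 and 31.1 CPM in ST_DCF, against 32.9 and 30.3 CPM in ST. AHR itself had 36.9 and 30.6 CPM in ST_DCF, against 29.5 and 31.4 CPM in ST, and NQO1, a quinone reductase, had 309 and 348 CPM in ST_DCF, against 336 and 329 CPM in ST, with overlapping groups. The enzymes that clear DCF in the liver, CYP3A4 and UGT2B7 among them, were not analysed here. Of 7 tested genes of DCF metabolism and transport, all had a log2 fold change above 0 (0.088 to 0.62) and 3 were higher at an unadjusted p under 0.05, with 1 without ST_DCF replicate 1, 0 without ST replicate 1 and 1 without ST replicate 2. POR, the reductase that feeds electrons to cytochromes P450, had 83.9 and 82.8 CPM in ST_DCF, against 65.7 and 72.7 CPM in ST (log2 fold change 0.27, adjusted p = 0.402), with the conditions apart. ABCG2, an efflux pump for drugs and a marker of limbal stem cells, had 15.7 and 8.62 CPM in ST_DCF, against 7.87 and 8.02 CPM in ST (log2 fold change 0.62, adjusted p = 0.416), so that replicate 2 stood only slightly above ST. ABCB1, the gene of P-glycoprotein, had 19.3 and 15.2 CPM in ST_DCF, against 17.8 and 14.6 CPM in ST.

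Among the 39 gene lists, that of p53 targets had the most members past the unadjusted threshold in one direction, and they were lower. All 24 tested members had a log2 fold change below 0, from −0.59 to −0.014, and 13 of them were lower at an unadjusted p under 0.05, against 4.51% of all genes. In 18 of 24, both ST_DCF libraries were below both ST libraries. The median was −0.28, with −0.35 in replicate 1 and −0.12 in replicate 2. The number lower at the unadjusted threshold was 6 of 24 without ST_DCF replicate 1, 8 without ST replicate 1 and 5 without ST replicate 2. The list was not drawn up blind to these values, and 0 of the 24 genes passed the test over all genes. MDM2, the ubiquitin ligase that degrades p53 and is itself a target of it, had 227 and 267 CPM in ST_DCF, against 369 and 377 CPM in ST (log2 fold change −0.59, standard error 0.108, adjusted p = 0.253). BTG2, an antiproliferative gene, had 32.7 and 37.2 CPM in ST_DCF, against 51.3 and 51.7 CPM in ST (log2 fold change −0.56, standard error 0.092, adjusted p = 0.216), with its 2 ST libraries almost equal. DESeq2 called both (adjusted p = 0.000246 for MDM2 and 0.000682 for BTG2). ZMAT3, an RNA-binding regulator, had 29.6 and 27.3 CPM in ST_DCF, against 40.2 and 38.8 CPM in ST, and CDKN1A, the cell cycle inhibitor p21, had 706 and 769 CPM in ST_DCF, against 856 and 876 CPM in ST (adjusted p = 0.406). ZMAT3 and CDKN1A were named after their values were seen, as were the further members of this list given here. The DNA repair gene XPC had 83.3 and 92.1 CPM in ST_DCF, against 107 and 109 CPM in ST, and BBC3, which encodes the death inducer PUMA, had 24.5 and 35.9 CPM in ST_DCF, against 38.1 and 39.5 CPM in ST, the difference of BBC3 lying mostly in replicate 1.

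Under the air-liquid stimulus the 24 p53 targets had a median log2 fold change of 0.029, and 1 was higher and 0 were lower at an unadjusted p under 0.05, against 6.32% and 6.24% of all genes. MDM2 had 214 and 265 CPM in AL_DCF, against 224 and 216 CPM in AL, so the 2 ST libraries were the high ones among all 8. The same held for BTG2, with 34.8 and 37.5 CPM in AL_DCF, against 36.1 and 35.3 CPM in AL. The difference between both responses did not pass the test for MDM2 or BTG2 (adjusted p = 0.171 and 0.172).

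A second group that was lower is that of ATF4, the transcription factor of the integrated stress response, which supplies cells with amino acids and aminoacyl-tRNA when these run short. The ATF4 list shares GDF15 with that of p53 targets. Of 19 tested members, 18 had a log2 fold change below 0, 16 had both ST_DCF libraries below both ST libraries, and 10 were lower at an unadjusted p under 0.05. The median was −0.27, with −0.35 in replicate 1 and −0.24 in replicate 2, both against the same ST libraries. Of the 19, 0 passed the test over all genes. Without replicate 1 the median was −0.24 and 4 members were lower at that threshold, with 4 also without ST replicate 1 and 5 without ST replicate 2. SLC7A11, the cystine importer, had 69.4 and 79.9 CPM in ST_DCF, against 125 and 115 CPM in ST (log2 fold change −0.69, standard error 0.134, adjusted p = 0.299). TRIB3, a pseudokinase that restrains the response, had 397 and 430.4 CPM in ST_DCF, against 559 and 530 CPM in ST (log2 fold change −0.40, standard error 0.092, adjusted p = 0.304). ASNS, the asparagine synthetase, had 228 and 315 CPM in ST_DCF, against 399.6 and 378 CPM in ST, and PSAT1, of serine synthesis, had 427 and 455 CPM in ST_DCF, against 570.1 and 551 CPM in ST. DDIT3, which encodes CHOP, had 48.1 and 51.4 CPM in ST_DCF, against 62.9 and 66.6 CPM in ST (log2 fold change −0.38, adjusted p = 0.382). ASNS, PSAT1 and DDIT3 were chosen after their values were seen. ATF4 itself had 742 and 738 CPM in ST_DCF, against 829.5 and 767 CPM in ST and CEBPB, the 1 member above 0, had 114 and 133 CPM in ST_DCF, against 102 and 119 CPM in ST.

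BCAT1, the cytosolic branched-chain aminotransferase (chr12:24810024-24949340, GRCh38), had the smallest adjusted p of the genes that were lower. It had 119 and 121 CPM in ST_DCF, against 183 and 179.5 CPM in ST, and the libraries of each condition were almost equal. BCAT1 did not pass the test, with a log2 fold change of −0.59, a standard error of 0.086 and an adjusted p of 0.187, but DESeq2 called the gene (adjusted p = 4.05e-06), as did limma-voom with sample quality weights (0.0426). It also passed without AL_DCF replicate 1 (0.0316), AL_DCF replicate 2 (0.0313) or ST_DCF replicate 2 (0.0178), whereas the adjusted p was 0.563 without ST_DCF replicate 1. Under the air-liquid stimulus BCAT1 had 125 and 147 CPM in AL_DCF, against 139 and 138 CPM in AL, with overlapping groups.

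The promoters of BCAT1, which is outside the ATF4 list, and of CHAC1, a member of it, hold the 8 letters TGATGCAA. ATF4 binds this element together with a C/EBP partner, and the promoters are shown for that reason. They are from RefSeq (GRCh38.p14), 250 bases before to 50 after the start, for BCAT1 at chr12:24949052-24949351, minus strand, and for CHAC1, a glutathione-degrading enzyme of the ATF4 list, at chr15:40953221-40953520, plus strand. The element is in capitals, 48 bases before the start of BCAT1 and, on the other strand, 209 bases before that of CHAC1.
BCAT1: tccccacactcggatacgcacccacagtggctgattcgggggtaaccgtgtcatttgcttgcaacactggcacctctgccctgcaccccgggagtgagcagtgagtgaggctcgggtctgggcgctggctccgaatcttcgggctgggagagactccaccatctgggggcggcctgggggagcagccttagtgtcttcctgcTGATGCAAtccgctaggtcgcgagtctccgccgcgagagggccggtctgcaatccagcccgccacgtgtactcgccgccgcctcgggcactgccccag
CHAC1: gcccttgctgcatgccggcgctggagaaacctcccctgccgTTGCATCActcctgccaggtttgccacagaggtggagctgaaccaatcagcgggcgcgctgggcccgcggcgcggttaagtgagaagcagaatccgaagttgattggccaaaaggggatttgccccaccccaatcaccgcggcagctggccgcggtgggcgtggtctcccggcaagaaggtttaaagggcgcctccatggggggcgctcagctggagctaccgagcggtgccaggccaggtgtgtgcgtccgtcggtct
Searched on both strands, TGATGCAA occurs in 304 of the 35116 promoters (0.866%) and in 2 of the 16 matched members of the ATF4 list. CHAC1 had 74.4 and 85.1 CPM in ST_DCF, against 95.3 and 94.9 CPM in ST (log2 fold change −0.26, adjusted p = 0.624), both ST_DCF libraries being lower, while the other member with the element, FGF21, was near the limit of counting with 0.365 and 0.382 CPM in ST_DCF, against 0.517 and 0.305 CPM in ST. The match says nothing of binding.

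The unfolded protein response of the endoplasmic reticulum had a smaller median shift than the ATF4 list. Of 17 tested members, 2 were lower at an unadjusted p under 0.05 and the median was −0.083. SEL1L, of the degradation complex for misfolded proteins, had 161 and 149.8 CPM in ST_DCF, against 196 and 188 CPM in ST (log2 fold change −0.30, adjusted p = 0.382), and DNAJB9, a cochaperone, had 22.3 and 22.4 CPM in ST_DCF, against 26.7 and 25.5 CPM in ST (log2 fold change −0.22, adjusted p = 0.463). The chaperone HSPA5 had 545 and 529 CPM in ST_DCF, against 577 and 557 CPM in ST. In the heat shock list 2 of 12 were higher at that threshold, HSPH1 with 131 and 106 CPM in ST_DCF, against 97 and 94.9 CPM in ST and HSPE1 with 59.9 and 64.3 CPM in ST_DCF, against 54.3 and 52.4 CPM in ST. Of 24 caspase and BCL2 family genes, 1 was higher and 1 lower. BID, a proapoptotic linker to mitochondria, had 53 and 55.6 CPM in ST_DCF, against 43.2 and 44.9 CPM in ST (log2 fold change 0.30, adjusted p = 0.376), and BBC3 is given above. Among 16 genes of NRF2 and glutathione, 2 were higher and 2 lower, ME1, the malic enzyme, with 29.4 and 18.2 CPM in ST_DCF, against 18 and 15.9 CPM in ST, and SLC7A11, which this list shares with that of ATF4. NFE2L2, the gene of NRF2 itself, had 130.2 and 148 CPM in ST_DCF, against 160 and 158 CPM in ST (log2 fold change −0.20, adjusted p = 0.476). In the metallothionein list, SLC30A1, a zinc exporter, had 50.4 and 48.1 CPM in ST_DCF, against 57 and 59.1 CPM in ST (log2 fold change −0.24, adjusted p = 0.383), and MT3 had under 0.5 CPM in all 4 libraries.

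**Figure D4:**
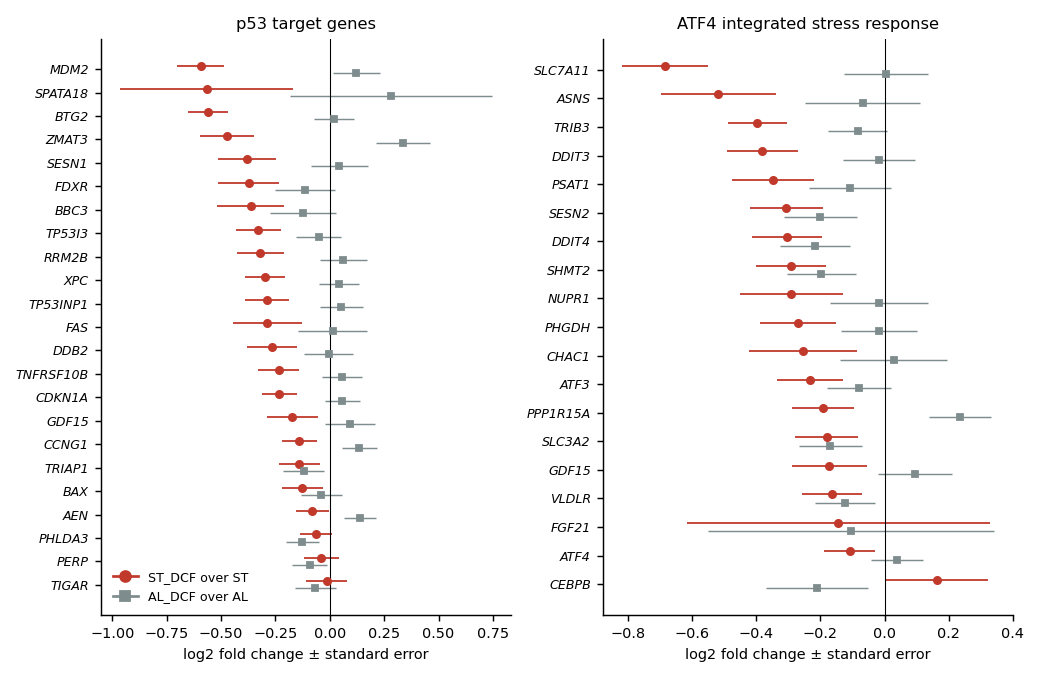
Log2 fold change with its standard error (horizontal axes) of 23 of the 24 tested members of the p53 target list (left) and of each tested member of the ATF4 list (right), for ST_DCF over ST (circles) and AL_DCF over AL (squares). For ST_DCF over ST, all 23 p53 targets drawn and 18 of 19 ATF4 genes lie left of 0, whereas the squares of the p53 targets scatter about 0.

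Cholesterol synthesis is a pathway driven by the transcription factor SREBP2. Of its 25 tested members, 0 passed the test over all genes, 22 had a log2 fold change above 0, 16 had both ST_DCF libraries above both ST libraries and 7 were higher at an unadjusted p under 0.05, against 5.53% of all genes. The median was 0.15, and it was similar in replicate 1 (0.12) and replicate 2 (0.15). Without ST replicate 1, 3 members were higher at that threshold. In AL_DCF over AL the median of the 25 genes was 0.07. There 4 were higher and 0 lower at an unadjusted p under 0.05, against 6.32% and 6.24% of all genes. INSIG1, the sterol sensor that holds SREBP in the endoplasmic reticulum, had 212 and 165 CPM in ST_DCF, against 133 and 128 CPM in ST (log2 fold change 0.54, standard error 0.148, adjusted p = 0.361). DHCR7, of the last step of cholesterol synthesis, had 365 and 359 CPM in ST_DCF, against 297 and 307 CPM in ST, with the libraries of each condition close together. DHCR7 was chosen after its values were seen. SREBF2, the gene of SREBP2, had 308 and 298 CPM in ST_DCF, against 295 and 297 CPM in ST.

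Of 11 fatty acid synthesis genes, 5 were higher at an unadjusted p under 0.05 and the median was 0.18, with 0.28 in replicate 1 and 0.047 in replicate 2. It was 2 genes without ST_DCF replicate 1 and 2 without ST replicate 2. FASN, the fatty acid synthase, had 611 and 448 CPM in ST_DCF, against 357 and 395 CPM in ST (log2 fold change 0.49, standard error 0.135, adjusted p = 0.361). FADS2, a desaturase on the way to arachidonic acid, had 281 and 284 CPM in ST_DCF, against 237 and 232 CPM in ST (log2 fold change 0.27, adjusted p = 0.382), and its libraries agreed closely. DESeq2 called FASN (adjusted p = 0.033) and INSIG1 (0.0352). In the list of PPAR targets, 3 of 12 were higher at that threshold, and 0 without ST_DCF replicate 1. ANGPTL4, a secreted inhibitor of lipoprotein lipase, had 10.5 and 4.97 CPM in ST_DCF, against 3.25 and 3.26 CPM in ST, with the ST libraries almost equal and replicate 1 highest (log2 fold change 1.26, standard error 0.32, adjusted p = 0.339). CPT1A, the entry enzyme of mitochondrial fatty acid oxidation, had 51.8 and 46.1 CPM in ST_DCF, against 36.1 and 42.8 CPM in ST (log2 fold change 0.31, adjusted p = 0.383). ANGPTL4 under the air-liquid stimulus had 47.9 and 31.3 CPM in AL_DCF, against 73.3 and 64.3 CPM in AL, a log2 fold change of −0.80 in the other direction, and the interaction did not pass the test (adjusted p = 0.131).

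Among epithelial genes, 5 of 13 corneal identity genes were higher at an unadjusted p under 0.05 and 0 lower, with a median of 0.22. It was 3 genes without ST_DCF replicate 1 or ST replicate 2 and 1 without ST replicate 1. CLU, the secreted chaperone clusterin of the ocular surface, had 68.9 and 60.6 CPM in ST_DCF, against 53.4 and 48.5 CPM in ST (log2 fold change 0.35, standard error 0.088, adjusted p = 0.337). The same list holds ABCG2, given above. For junctions, 4 of 25 genes were higher and 3 lower, with 0 and 1 without ST replicate 1. CLDN1, a claudin that seals the paracellular space, had 72.8 and 83.3 CPM in ST_DCF, against 99.2 and 102 CPM in ST (log2 fold change −0.37, adjusted p = 0.376), and CLDN3 had 6.49 and 7.15 CPM in ST_DCF, against 4.65 and 5.12 CPM in ST (log2 fold change 0.48, adjusted p = 0.436). TJP1, the gene of ZO-1, had 207 and 201 CPM in ST_DCF, against 239 and 229.7 CPM in ST and CDH1, of E-cadherin, had 415 and 348 CPM in ST_DCF, against 354 and 365 CPM in ST. Of 8 mucin genes, 1 was lower at that threshold. MUC2, a secreted gel-forming mucin, had 1.15 and 1.44 CPM in ST_DCF, against 3.04 and 3.17 CPM in ST (log2 fold change −1.27, standard error 0.265, adjusted p = 0.299), at 44 and 49 counts in ST_DCF, against 106 and 104 counts in ST. MUC16, the membrane mucin of the corneal surface, had 42 and 34.7 CPM in ST_DCF, against 41.2 and 43 CPM in ST, and MUC1 had 20.6 and 18.7 CPM in ST_DCF, against 12.7 and 18.6 CPM in ST.

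The genes with the lowest log2 fold changes included 3 of the late cornified envelope family, LCE1E, LCE1B and LCE1C, small proteins of the cornified layer of stratified epithelia that lie close together on chromosome 1 (GRCh38, chr1:152786257-152788426, chr1:152811971-152813108 and chr1:152804832-152806651). LCE1E had 2.11 and 4.03 CPM in ST_DCF, against 8.56 and 8.87 CPM in ST (log2 fold change −1.51, standard error 0.267, adjusted p = 0.253). LCE1B had 1.98 and 4.00 CPM in ST_DCF, against 8.82 and 7.65 CPM in ST (log2 fold change −1.47, adjusted p = 0.299) and LCE1C had 2.50 and 7.35 CPM in ST_DCF, against 13.3 and 12.4 CPM in ST (log2 fold change −1.40, adjusted p = 0.304). In each of the 3 genes both ST_DCF libraries were below both ST libraries and replicate 1 was the lower of them. The genes of this family are much alike in coding sequence, so reads may be shared among them and the 3 values are not independent. Without replicate 2 all 3 passed the test, and DESeq2 called LCE1E (adjusted p = 0.000246) and LCE1B (0.00105). Under the air-liquid stimulus LCE1E had 2.49 and 3.15 CPM in AL_DCF, against 2.48 and 2.90 CPM in AL. Promoters of LCE1C and LCE1E, from RefSeq (GRCh38.p14, chr1:152806602-152806901, minus strand, and chr1:152786007-152786306, plus strand), are shown to make the likeness of the family visible. Capitals mark the TATA-like box ATAAAA, 28 bases before the start in both.
LCE1C: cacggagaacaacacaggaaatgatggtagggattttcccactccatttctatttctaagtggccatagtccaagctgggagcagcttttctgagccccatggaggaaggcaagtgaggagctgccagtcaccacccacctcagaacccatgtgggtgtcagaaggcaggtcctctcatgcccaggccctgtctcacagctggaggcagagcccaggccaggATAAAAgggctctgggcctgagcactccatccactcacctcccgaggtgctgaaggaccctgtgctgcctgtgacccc
LCE1E: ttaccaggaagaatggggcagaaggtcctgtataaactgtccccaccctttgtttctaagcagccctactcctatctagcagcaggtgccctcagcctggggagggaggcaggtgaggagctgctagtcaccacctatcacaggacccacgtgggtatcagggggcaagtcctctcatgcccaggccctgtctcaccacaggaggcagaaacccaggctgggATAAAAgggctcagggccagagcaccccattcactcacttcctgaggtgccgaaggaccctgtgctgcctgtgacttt
The aligned promoters were identical at 231 of 305 positions, gaps included (75.7%), and ATAAAA occurs on either strand in 16% of all promoters of this length. In the cornified envelope and kallikrein list, which does not hold these LCE1 genes, 1 of 15 genes was higher and 2 were lower at an unadjusted p under 0.05. CDSN, of corneodesmosomes, had 8.70 and 11.2 CPM in ST_DCF, against 13.2 and 13.9 CPM in ST (log2 fold change −0.45, adjusted p = 0.416) and CSTA, a cystatin, had 9.06 and 14 CPM in ST_DCF, against 16.1 and 15.4 CPM in ST (log2 fold change −0.45, adjusted p = 0.442), CSTA with most of its difference in replicate 1.

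Inflammatory genes had no common direction. Of 22 cytokine and chemokine genes, 2 were higher at an unadjusted p under 0.05 and the median was −0.063. CCL5, a chemokine for T cells and monocytes, had 9.92 and 6.44 CPM in ST_DCF, against 2.67 and 2.44 CPM in ST (log2 fold change 1.68, standard error 0.367, adjusted p = 0.299), and both ST_DCF libraries were well above ST. IL1B had 44 and 23.4 CPM in ST_DCF, against 21.9 and 22.2 CPM in ST (log2 fold change 0.61, adjusted p = 0.449), where replicate 2 was close to ST. Acute-phase and antimicrobial genes had a median of −0.46 in replicate 1 and 0.11 in replicate 2, the widest gap between the ST_DCF replicates among the 39 lists. RNASE7, an antimicrobial ribonuclease of epithelia, had 8.49 and 15.7 CPM in ST_DCF, against 18.6 and 20.3 CPM in ST (log2 fold change −0.69, adjusted p = 0.383), and ELF3, an epithelial transcription factor, had 116 and 115 CPM in ST_DCF, against 92.9 and 105 CPM in ST (log2 fold change 0.22, adjusted p = 0.442). Of 30 interferon-stimulated genes, 24 had a log2 fold change above 0 and 1 was higher at that threshold, with a median of 0.16. OASL, an antiviral protein, had 118 and 84.4 CPM in ST_DCF, against 62.6 and 71.6 CPM in ST (log2 fold change 0.59, adjusted p = 0.435), and IRF1 had 147 and 147 CPM in ST_DCF, against 131 and 135 CPM in ST. Among NF-kappaB feedback genes, 1 of 16 was higher and 1 lower, NFKBIA, the inhibitor of the pathway, with 172 and 178 CPM in ST_DCF, against 144 and 159.9 CPM in ST, and REL, a subunit, with 15.8 and 17.9 CPM in ST_DCF, against 21.8 and 18.8 CPM in ST.

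In the lists of ribosomal proteins, the mitochondrial genome, nuclear oxidative phosphorylation and the cell cycle, medians were between −0.14 and 0.021. Of 30 cytosolic ribosomal protein genes, 27 had a log2 fold change below 0 and 4 were lower at an unadjusted p under 0.05. It was 19 genes without ST_DCF replicate 2 and 0 without any 1 of the other 3 static libraries. The median was −0.12, but −0.26 in replicate 1 and −0.010 in replicate 2. The part of transcript length in this gap was not tested. RPL7 had 349 and 383 CPM in ST_DCF, against 434 and 427 CPM in ST (log2 fold change −0.24, adjusted p = 0.428) and RPL3 had 845 and 1000 CPM in ST_DCF, against 1095 and 1050 CPM in ST (log2 fold change −0.22, adjusted p = 0.468). The 13 genes of the mitochondrial genome had a median of −0.14, with −0.13 in replicate 1 and −0.18 in replicate 2, and 3 of them were lower at that threshold, with 0 without ST replicate 1. ND5, of complex I, had 637 and 717 CPM in ST_DCF, against 867 and 791 CPM in ST (log2 fold change −0.29, adjusted p = 0.382), and COX1, the mitochondrially encoded subunit of complex IV and no cyclooxygenase, had 3457 and 3527 CPM in ST_DCF, against 4256 and 4081 CPM in ST (log2 fold change −0.26, adjusted p = 0.383). Of 32 nuclear genes of oxidative phosphorylation, 2 were higher, COX6C with 65.7 and 72.1 CPM in ST_DCF, against 58.1 and 60.1 CPM in ST and ATP5F1A with 238 and 235 CPM in ST_DCF, against 210.3 and 213 CPM in ST. In the cell cycle, 1 of 22 genes of G1/S was higher and 3 were lower. CCNE2, a cyclin of S phase entry, had 37.4 and 43 CPM in ST_DCF, against 56.7 and 51.5 CPM in ST (log2 fold change −0.43, adjusted p = 0.301), and RRM2, a ribonucleotide reductase subunit, had 455 and 617 CPM in ST_DCF, against 691 and 647 CPM in ST (log2 fold change −0.32, adjusted p = 0.445). Of 22 mitotic genes, 4 were higher and 1 lower. CENPA, the centromeric histone, had 37.4 and 35.5 CPM in ST_DCF, against 28.1 and 30.0 CPM in ST (log2 fold change 0.33, adjusted p = 0.361), and AURKA, a mitotic kinase, had 115 and 112 CPM in ST_DCF, against 97.6 and 91.2 CPM in ST (log2 fold change 0.27, adjusted p = 0.376).

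Wnt target and feedback genes had a median of 0.30, with 0.46 in replicate 1 and 0.074 in replicate 2. Of 15 tested, 4 were higher at an unadjusted p under 0.05, and it was 0 without ST_DCF replicate 1 and 2 without ST replicate 2. DKK1, a secreted Wnt antagonist, had 97.8 and 61.8 CPM in ST_DCF, against 53.1 and 53.7 CPM in ST (log2 fold change 0.58, adjusted p = 0.382), and MYC had 62.5 and 40.5 CPM in ST_DCF, against 40.0 and 35.5 CPM in ST (log2 fold change 0.45, adjusted p = 0.477). Among EGF receptor ligands and ERK feedback genes, 4 of 20 were higher at that threshold, with 0 without ST_DCF replicate 1 and 1 without either ST library. They included SPRY2 with 22.4 and 13.8 CPM in ST_DCF, against 13 and 10.6 CPM in ST (log2 fold change 0.62, adjusted p = 0.383) and DUSP4 with 85.6 and 66.6 CPM in ST_DCF, against 59.8 and 62.8 CPM in ST (log2 fold change 0.31, adjusted p = 0.406), both feedback inhibitors of the pathway. Of 19 immediate early genes, 2 were higher and 3 lower. IER3 had 223 and 200.4 CPM in ST_DCF, against 168 and 170.5 CPM in ST (log2 fold change 0.32, adjusted p = 0.394) and EGR3 had 5.78 and 4.41 CPM in ST_DCF, against 7.81 and 7.22 CPM in ST (log2 fold change −0.56, adjusted p = 0.426). In the list of glycolysis and hypoxia, 5 of 23 were higher and 0 lower, with 3 higher without ST_DCF replicate 1 and 1 without ST replicate 1. ALDOC, a glycolytic aldolase, had 25.2 and 22 CPM in ST_DCF, against 17 and 16.5 CPM in ST (log2 fold change 0.50, standard error 0.11, adjusted p = 0.3), PFKP, a phosphofructokinase, had 224 and 215 CPM in ST_DCF, against 182 and 184 CPM in ST (log2 fold change 0.26, adjusted p = 0.383), and all 4 libraries of each gene kept the conditions apart. OXCT1, of ketone body use, had 32.4 and 46.5 CPM in ST_DCF, against 54.8 and 51 CPM in ST (log2 fold change −0.43, adjusted p = 0.406). Of the targets of TGF-beta and YAP, 2 of 16 were higher and 3 lower, AXL, a receptor kinase, with 349 and 331 CPM in ST_DCF, against 394 and 385 CPM in ST and AJUBA, a LIM protein, with 111 and 129 CPM in ST_DCF, against 141 and 144 CPM in ST. Among 26 genes of extracellular matrix and proteases, 1 was higher, LAMA5, a laminin chain, with 161 and 136 CPM in ST_DCF, against 119 and 129 CPM in ST, while MMP17, a membrane-bound metalloproteinase, had 4.04 and 2.29 CPM in ST_DCF, against 1.81 and 2.26 CPM in ST.

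**Figure D5:**
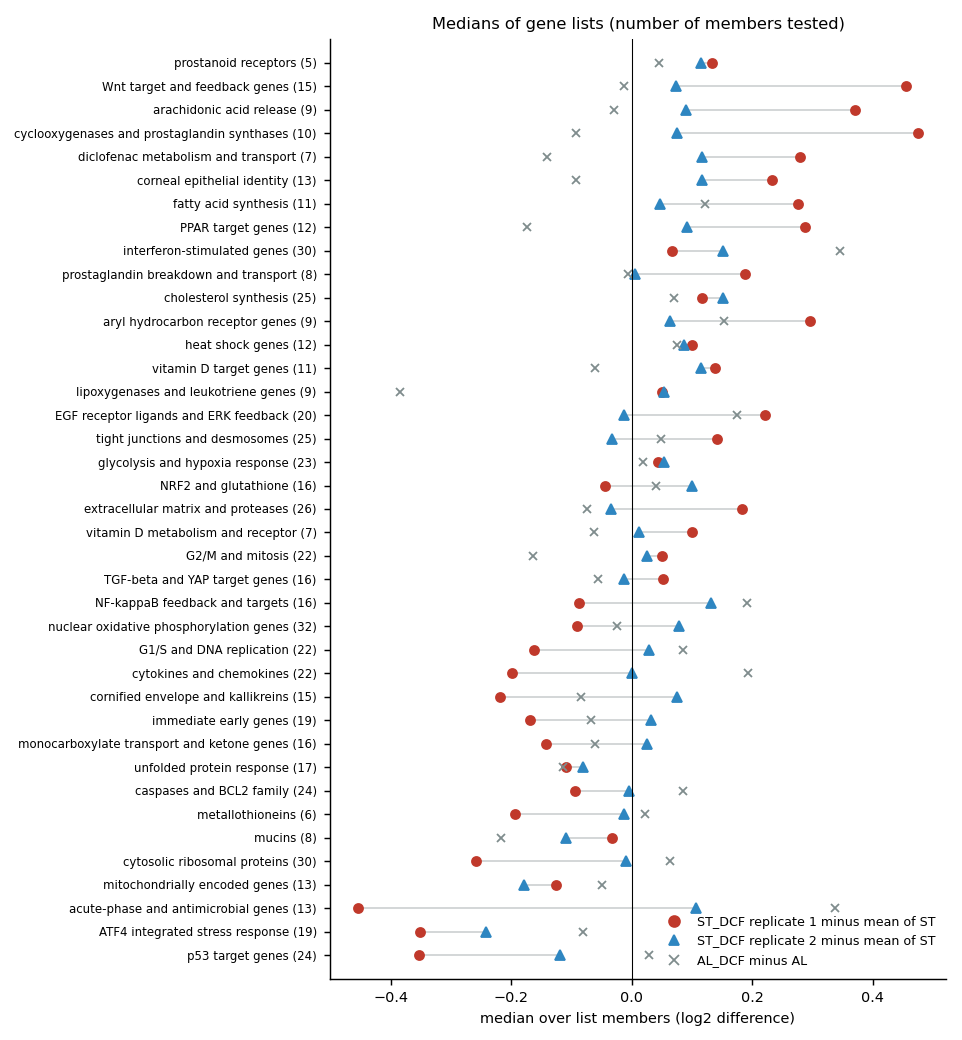
Median over the tested members of each of 39 gene lists (rows, number tested in parentheses) of the log2 difference between ST_DCF replicate 1 (circles) or replicate 2 (triangles) and the mean of ST, with the median of AL_DCF over AL as crosses. The lists of p53 targets and ATF4 lie at −0.35 and −0.35 in replicate 1 and at −0.12 and −0.24 in replicate 2, the list of acute-phase and antimicrobial genes at −0.46 and 0.11, and in most lists replicate 1 lies further from 0 than replicate 2.

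Of the 17445 genes tested, 393 had an unadjusted p under 0.01, a mean log2 CPM above 1 and no overlap between ST_DCF and ST. Of these, 228 were higher and 165 lower. The lack of overlap alone held for 21.3% of all genes on the higher and 21.6% on the lower side. Among the 393 genes, those with the highest log2 fold changes, besides CCL5 and AKR1B1, were TMPRSS2, ZNF8-ERVK3-1, MYPN, NID2, TMEM171 and CDH5. CDH5, the cadherin of endothelial junctions, had 19.5 and 12.6 CPM in ST_DCF, against 6.69 and 6.25 CPM in ST (log2 fold change 1.31, standard error 0.25, adjusted p = 0.299), and DESeq2 called it (adjusted p = 0.000377). Other endothelial markers were near the limit of counting, PECAM1 with 0.573 and 0.382 CPM in ST_DCF, against 0.287 and 0.335 CPM in ST, VWF with 0.99 and 0.853 CPM in ST_DCF, against 0.718 and 0.793 CPM in ST and KDR with 1.69 and 0.588 CPM in ST_DCF, against 0.948 and 0.457 CPM in ST. TMPRSS2, a surface serine protease, had 8.41 and 3.09 CPM in ST_DCF, against 1.70 and 2.1 CPM in ST (log2 fold change 1.60, adjusted p = 0.361). NID2, a basement membrane nidogen, had 35.8 and 12.2 CPM in ST_DCF, against 9.74 and 9.45 CPM in ST (log2 fold change 1.33, adjusted p = 0.382), and MYPN, the sarcomere protein myopalladin, had 22.7 and 9.76 CPM in ST_DCF, against 6.49 and 6.13 CPM in ST (log2 fold change 1.36, adjusted p = 0.304). TMEM171, a membrane protein, had 4.64 and 1.62 CPM in ST_DCF, against 1.06 and 1.46 CPM in ST. For TMPRSS2, MYPN, NID2 and TMEM171 replicate 1 was above replicate 2 by more than a factor of 2. The lowest genes, besides the LCE1 family, were AGAP6, TPTEP2-CSNK1E, RPL41P3, IQCN and SCRT1. IQCN had 1.49 and 1.26 CPM in ST_DCF, against 2.84 and 3.54 CPM in ST (log2 fold change −1.21, standard error 0.248, adjusted p = 0.299) and SCRT1, a zinc-finger repressor of neural cells, had 1.38 and 1.41 CPM in ST_DCF, against 2.50 and 3.44 CPM in ST (log2 fold change −1.09, adjusted p = 0.361), and for both the ST_DCF libraries lay close together. AGAP6 (0.677 and 1.94 CPM in ST_DCF, against 4.22 and 7.77 CPM in ST), TPTEP2-CSNK1E (5.83 and 3.23 CPM in ST_DCF, against 13.1 and 26 CPM in ST), RPL41P3 (0.313 and 1.12 CPM in ST_DCF, against 3.76 and 2.17 CPM in ST) and, among the higher genes, ZNF8-ERVK3-1 (2.84 and 5.94 CPM in ST_DCF, against 1.90 and 1.34 CPM in ST) belong to multigene families, readthrough loci or pseudogenes, and their reads can be split differently between libraries, so they are uncertain.

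The genes that set replicate 1 apart from replicate 2 most are a description of these 2 libraries and carry no test. High in replicate 1 were PLCXD3, EREG, SPOCK1, AKR1B1, NID2 and ANKHD1. EREG, the EGF receptor ligand epiregulin, had 98.4 and 26.4 CPM in ST_DCF, against 28.2 and 29.1 CPM in ST, and replicate 2 was below both ST libraries. SPOCK1, a matrix proteoglycan, had 161 and 59.4 CPM in ST_DCF, against 64.6 and 56.8 CPM in ST, and PLCXD3, a phospholipase-like protein, had 36.7 and 7.06 CPM in ST_DCF, against 7.33 and 7.22 CPM in ST. Low in replicate 1 were S100A9, BCL2L2-PABPN1, SERPINA3, LCN2, CD52 and ANKHD1-EIF4EBP3. S100A9, a subunit of calprotectin, had 22.7 and 81.2 CPM in ST_DCF, against 61.2 and 68.6 CPM in ST. LCN2, the siderophore-binding lipocalin, had 13.3 and 29 CPM in ST_DCF, against 29.1 and 36.9 CPM in ST, and SERPINA3, an acute-phase protease inhibitor, had 8.34 and 19.1 CPM in ST_DCF, against 20.9 and 21 CPM in ST. CD52, a small surface glycopeptide, had 8.15 and 18.6 CPM in ST_DCF, against 13.5 and 14.8 CPM in ST. In S100A9 and CD52 replicate 2 was above both ST libraries, and in LCN2 and SERPINA3 it was just below them, while replicate 1 was far below ST in all 4 genes. ANKHD1 (187 and 51.9 CPM in ST_DCF, against 62.6 and 205 CPM in ST) and ANKHD1-EIF4EBP3 (78.3 and 177 CPM in ST_DCF, against 180.5 and 35.2 CPM in ST) are overlapping loci whose reads moved between them in ST too, and BCL2L2-PABPN1 is likewise a readthrough locus, so these are not read as differences. With replicate 2 left out, the genes with the smallest p among those called included UCA1, a long non-coding RNA, with 1304 and 510.3 CPM in ST_DCF, against 416 and 494 CPM in ST, SFRP1, a Wnt antagonist, with 316 and 153 CPM in ST_DCF, against 136 and 144 CPM in ST, and TMEM40, a membrane protein, with 45.5 and 62.4 CPM in ST_DCF, against 81.9 and 79.5 CPM in ST.

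The comparison under the air-liquid stimulus shares no library with the static one. There the same dose of DCF gave 18 genes higher and 44 lower in AL_DCF than in AL (0.103% and 0.252%, together 0.355% of the genes tested). Of the 964 genes that were higher in ST_DCF at an unadjusted p under 0.05, 516 had a log2 fold change above 0 in AL_DCF over AL (53.5%, against 51.3% of all genes). Of the 786 lower genes, 433 had one below 0 (55.1%, against 48.7%). The median of these genes in AL_DCF over AL was 0.019 for the higher and −0.021 for the lower ones, against 0.40 and −0.33 in ST_DCF over ST. The difference between both responses passed the test for 6 genes (0.0344%), against 1963 genes (11.3%) at an unadjusted p under 0.05 and 144 genes (0.825%) in DESeq2. It was 0 genes without ST replicate 2, 0 without AL replicate 2, 0 on log2 FPKM, 2 without ST replicate 1, 3 without ST_DCF replicate 1 and 3 without the expression filter. The 6 genes had a more negative response under the air-liquid stimulus. H1-2, a linker histone, had 49.6 and 44 CPM in ST_DCF, against 44.8 and 47.3 CPM in ST, with overlapping groups, whereas under the air-liquid stimulus it had 48.8 and 42.3 CPM in AL_DCF, against 107 and 113 CPM in AL (interaction −1.30, adjusted p = 0.00455). DHRS2, a short-chain dehydrogenase, had 266 and 251 CPM in ST_DCF, against 234 and 253 CPM in ST, whereas under the air-liquid stimulus it had 54.6 and 63.1 CPM in AL_DCF, against 126 and 128 CPM in AL (interaction −1.19, adjusted p = 0.00455). In the 4 further genes, H2BC21, DNAH3, LOC105372338 and LOC107986257, the interaction was between −1.94 and −1.22.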

How the data were processed

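Polyadenylated RNA of HCE-T cultures was sequenced on stranded mRNA libraries (2 per condition, 4 conditions). Per the labels and the study's methods, the authors used FastQC 0.11.7 and Trimmomatic 0.38 for read quality and trimming, HISAT2 2.1.0 with Bowtie2 2.3.5.1 for alignment to GRCh38, and StringTie 2.1.3b for quantification; the settings of the counting are not given in the sources used here. The deposited table gives read counts, and beside them the authors' FPKM and TPM values, scaled for gene length and library depth. It lists only the 18430 genes with a count in every library, so a gene without counts in 1 library is not analysed here. The authors' own fold changes and p-values in the table were not used.

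Counts were analysed in R 4.3.3 with edgeR 4.0.16 (filterByExpr, TMM, one coefficient per condition over all 8 libraries, 4 residual degrees of freedom, quasi-likelihood F-test, Benjamini-Hochberg adjustment over 17445 genes). Replicate differences from the mean of ST are of log2 CPM with a prior count of 2. DESeq2 1.42.0, limma 3.58.1 (voom with sample quality weights, and log2 FPKM with a pseudocount of 1 or 0.1), edgeR's exact test, other scalings and filters, a replicate block and each library left out were alternatives. Counts per gene list with a static library left out were added after the data were seen. The code was tested on simulated data. Conditions were taken from the sample titles. Where p-values are given, they measure the spread between cultures of 1 line.

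The comparison and the gene lists were chosen with earlier results of these data known. Named genes were those called, PTGES and CYP24A1, the 8 highest and 8 lowest log2 fold changes among genes with an unadjusted p under 0.01, a mean log2 CPM above 1 and no overlap between ST_DCF and ST, the 2 members of smallest p in each of 39 lists, members of the prostaglandin, vitamin D and aryl hydrocarbon receptor lists, the 6 genes highest and 6 lowest in ST_DCF replicate 1 against replicate 2, and the 5 of smallest p in each direction called without an ST_DCF library. The genes of the interaction were those called; other genes were named after their values were seen. Some genes that these rules pick are not reported here. Promoter sequences came from RefSeq (GRCh38.p14), and 18207 genes of the table matched a RefSeq entry.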

Additional observations from a re-analysis of the deposited data

Results flagged for a closer look

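The response to DCF differed between the air-liquid stimulus and static culture for 6 genes, by the interaction term of edgeR's quasi-likelihood test (response under the stimulus minus response in static culture, log2 scale). It was 0 genes without ST replicate 2, without AL replicate 2 or in limma on log2 FPKM. The linker histone gene H1-2 had an interaction of −1.297 (adjusted p = 0.00455), with a log2 fold change of −1.27 in AL_DCF over AL and 0.024 in ST_DCF over ST. The core histone gene H2BC21 had −1.222 (adjusted p = 0.0323), with 13.1 and 13.7 CPM in AL_DCF, against 29.1 and 33.2 CPM in AL, and 16.6 and 14.6 CPM in ST_DCF, against 15.8 and 15.3 CPM in ST. For the dehydrogenase gene DHRS2 it was −1.192 (adjusted p = 0.00455), and for DNAH3, a dynein heavy chain, −1.714 (adjusted p = 0.00455), with log2 fold changes of −1.48 in AL_DCF over AL and 0.23 in ST_DCF over ST.

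The other two genes were higher in both ST_DCF libraries than in ST and lower in AL_DCF than in AL. LOC105372338 had 9.38 and 6.15 CPM in ST_DCF, against 4.05 and 3.99 CPM in ST, and an interaction of −1.943 (adjusted p = 0.0323). LOC107986257 had 9.07 and 8.18 CPM in ST_DCF, against 5.86 and 5.79 CPM in ST, and an interaction of −1.788 (adjusted p = 0.0323). In neither of them did the static difference itself pass the test (adjusted p = 0.299 for LOC105372338 and 0.382 for LOC107986257).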

How the results depend on the processing

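The number of genes called between ST_DCF and ST, 1 in the reported analysis, was 1 with relative log expression or upper-quartile factors, with at least 10 counts in every library and with the 4 static libraries alone. It was 73 with DESeq2, 2 with limma-voom and sample quality weights, 0 without an expression filter, 0 with a replicate block, 0 in limma on log2(FPKM + 1), 0 on log2(FPKM + 0.1), and 0 when a fold of 2 was also required. The exact test at a fold of 2 picked 266 genes and an unadjusted p under 0.05 alone 1750. With each library left out in turn the count was 0 to 308, with 308 when ST_DCF replicate 2 was left out and 0 when ST_DCF replicate 1 or either AL library was. The cause was not tested. The log2 fold change of PTGES lost its call, with an adjusted p above 0.05, at 0.896 without a filter, 0.893 with a replicate block (adjusted p = 0.0696 in edgeR), 0.877 on log2(FPKM + 1), 0.902 on log2(FPKM + 0.1), and lay between 0.841 and 0.949 with each library left out. The interaction, 6 genes in the reported analysis, gave 144 with DESeq2, 3 without a filter, 0 and 0 on log2 FPKM, and 0 to 189 with each library left out, with 0 when ST replicate 2 or AL replicate 2 was left out, 2 for ST replicate 1, 3 for ST_DCF replicate 1, 4 for AL_DCF replicate 2 or AL replicate 1, 51 for AL_DCF replicate 1 and 189 for ST_DCF replicate 2. Leaving out ST_DCF replicate 1 turned 2 of the single-gene differences: PTGS2 was then −0.198 and CYP27B1 −0.121 (without ST_DCF replicate 2, 0.639 and 0.57). Without ST_DCF replicate 2, 36 further reported results passed the threshold, and 15 did with DESeq2. The replicate block is only a check, because same-numbered libraries did not deviate together (correlations −0.102 to 0.0985) and the labels give no shared origin.

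At 2 libraries a condition, genes near 1 CPM carry a counting error of about 17.4%, and a difference that replicate 1 alone shows cannot be told apart from that library.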
